A study of Mus musculus with 3 samples.

Results

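The genes described here are 8 genes that endothelial cells, the inner lining of blood and lymph vessels, use to slow, hold and pass leukocytes or to hold on to each other. They were chosen by name, and all 8 stand among the 32285 genes counted. They are the selectins Selp and Sele, the immunoglobulin-type ligands Icam1, Icam2 and Vcam1, the secreted multimer Vwf, and the junction proteins Pecam1 and Cdh5. Hearts of male C57/B6J mice with the point mutation Myh6-R404Q (alpha myosin heavy chain) or Prkag2-p.R299Q (gamma 2 subunit of AMP-activated protein kinase) were compared with hearts of WT mice of the same strain and sex. Both mutations model hypertrophic cardiomyopathy, in which the heart muscle thickens, and the series concerns fibrosis and immune activation in such hearts. Age, the number of animals behind a library and zygosity are not stated in the labels. Total cells freed from the heart by collagenase digestion and passed through a strainer were profiled as 3-prime transcript ends, each marked with a unique molecular identifier (UMI). Each genotype gave 1 library, so differences between them stand without replicates and were not put to a test.

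Leukocytes leave the blood in steps. P-selectin (Selp) and E-selectin (Sele) on activated endothelium catch rolling leukocytes, Icam1 and Vcam1 bind their integrins and bring them to a stop, and Pecam1, Icam2 and Cdh5 at the cell borders govern the passage between cells. P-selectin protein is stored together with von Willebrand factor (Vwf) in Weibel-Palade bodies, secretory granules of the endothelium, while Sele is made on demand after inflammatory signals. In many organs Selp, Sele and Vwf are most prominent in veins and venules.

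The genes lie on several chromosomes of GRCm38, and each is annotated as protein coding. Selp (chr1:164115264-164150026) and Sele (chr1:164048234-164057677) are neighbours on the plus strand with 57586 bases between them, and Pecam1 (chr11:106654217-106750628) and Icam2 (chr11:106377656-106388075) share the minus strand of chromosome 11. Icam1 (chr9:21015985-21028817), Vwf (chr6:125546774-125686679) and Cdh5 (chr8:104101625-104144511) run on the plus strand, and Vcam1 (chr3:116109949-116129688) on the minus strand. Annotated RNAs on the opposite strand overlap Selp, Icam1, Vcam1 and Cdh5. Whether the counting used strand is not given in the sources used here, so reads of such a pair may not be fully separated.

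The promoters of Selp, Sele and Icam1 are shown because the selectins are the members that differed most between libraries, and Icam1 stands beside them as a gene of the same response. Each run is the 250 bases before the RefSeq start on the plus strand of GRCm38.p6, at chr1:164115014-164115263, chr1:164047984-164048233 and chr9:21015690-21015939. Capitals mark matches on either strand to a loose form of the site of the inflammatory factor NF-kB (GGG, any 5 bases, then CC) and to TATAAA.

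Selp: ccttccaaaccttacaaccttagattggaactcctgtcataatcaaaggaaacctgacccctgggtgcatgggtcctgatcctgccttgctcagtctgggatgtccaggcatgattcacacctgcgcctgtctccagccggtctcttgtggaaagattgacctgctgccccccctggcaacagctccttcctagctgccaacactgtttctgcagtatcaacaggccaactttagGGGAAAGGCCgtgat

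Sele: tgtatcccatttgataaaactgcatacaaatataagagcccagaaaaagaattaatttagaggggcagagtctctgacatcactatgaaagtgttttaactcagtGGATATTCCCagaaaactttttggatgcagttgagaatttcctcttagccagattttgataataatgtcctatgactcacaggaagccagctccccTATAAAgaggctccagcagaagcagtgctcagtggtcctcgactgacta

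Icam1: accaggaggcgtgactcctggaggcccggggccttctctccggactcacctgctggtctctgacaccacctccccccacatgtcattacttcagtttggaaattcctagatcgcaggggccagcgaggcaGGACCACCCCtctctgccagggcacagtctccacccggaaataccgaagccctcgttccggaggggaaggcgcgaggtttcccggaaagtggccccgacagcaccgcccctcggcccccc

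Each of the 3 promoters held 1 match to the NF-kB form, with its first base at position -15 in Selp, -145 in Sele and -120 in Icam1, counted from the start. This loose motif was present in 45.8% of the 32851 promoters of that length, so a match is common. TATAAA was found at position -49 of Sele alone, and in 12.4% of all promoters. These are matches of letters and no measure of binding. The other 5 members (Icam2, Vcam1, Vwf, Pecam1 and Cdh5) were not matched in the promoter table.

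The Myh6-R404Q library held 12662 barcodes with a median of 2043 UMIs, the Prkag2-p.R299Q library 7951 barcodes with 2537 UMIs, and the WT library 18033 barcodes with 1559 UMIs. The deposited Myh6-R404Q matrix also repeated all barcodes of the other libraries, with 0 differing entries, and only its own barcodes were used. Of these, 34 sequences recurred in Prkag2-p.R299Q and 51 in WT, and 28 were common to Prkag2-p.R299Q and WT. Over all kept cells Myh6 stood at 6081, 7150 and 6429 CPM and Prkag2 at 120, 126 and 137 CPM in Myh6-R404Q, Prkag2-p.R299Q and WT, which for point mutations checks no label. After removal of called doublets, 10530, 6780 and 14785 cells were kept in that order, of which 3190, 1529 and 4753 fell into endothelial-like clusters. Sub-clustering, with the 8 members kept out of the genes used, gave endothelial groups named from other markers. They were capillary-like (1038, 493 and 951 cells), arterial-like (101, 48 and 276), vein-like (75, 26 and 206), endocardial-like (665, 220 and 530) and lymphatic-like cells (326, 238 and 742). A cluster led by Lhx6 and Vegfc (434, 230 and 655 cells) and a small one led by Lypd6 stayed unnamed. Clusters rich in muscle RNA were kept apart by a threshold set after the data had been seen. Their share of the endothelial-like cells was 15.6% for Myh6-R404Q, 15.5% for Prkag2-p.R299Q and 26.9% for WT. The names rest on genes such as Nr2f2, Vegfc and Il1r1 for vein-like cells, Npr3 and Nrg1 for endocardial-like cells and Prox1, Mmrn1 and Reln for lymphatic-like cells. Ackr1, a defining gene of venules, was at 0 CPM in vein-like cells of Myh6-R404Q and at 19.7 and 18.1 CPM in those of Prkag2-p.R299Q and WT, so the venule identity of this group is weakly marked. Its 10 leading genes held none of the fixed vein markers but did hold Selp, which had not been used to form it. Vegfc and Lhx6 marked the unnamed cluster as well. Vegfc was higher in arterial-like cells (1308, 1028 and 1022 CPM) than in vein-like cells (715, 710 and 641.5 CPM). Nr2f2 was higher in lymphatic-like cells (430, 580 and 478 CPM) than in vein-like cells (247, 355 and 275 CPM). Lhx6 was highest in vein-like cells among the named groups, at 170, 118 and 159.5 CPM.

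Across the heart each member had its own place (levels are the gene's UMIs over all UMIs of the cell group, per 1000000 UMIs (CPM), with 95% intervals that cover counting error only). Vwf was highest in vein-like cells, at 1677 CPM in Myh6-R404Q, 2013 CPM in Prkag2-p.R299Q and 1711 CPM in WT. Endocardial-like cells followed with 935, 873 and 1014 CPM of Vwf in the same order of libraries. The ranges of these 2 groups over the libraries did not overlap, and both lay above arterial-like cells (62.7 to 348 CPM) and the Lhx6 and Vegfc cluster (162 to 263 CPM), whose ranges overlapped each other. Capillary-like cells (16.4 to 38.7 CPM) and lymphatic-like cells (4.22 to 35.4 CPM) were lowest in Vwf and overlapped.

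Vcam1, the ligand of the integrin of Itga4 and Itgb1, was highest in endocardial-like cells, with 499 CPM in Myh6-R404Q, 593 CPM in Prkag2-p.R299Q and 702 CPM in WT. Vein-like cells came next with 255, 276 and 315 CPM, clear of the endocardial-like range. The Lhx6 and Vegfc cluster (82.1 to 142 CPM) and arterial-like cells (50.1 to 104 CPM) overlapped. Capillary-like cells had 25.3 to 29.0 CPM and lymphatic-like cells 8.27 to 12.4 CPM of Vcam1. Cells like the endocardium, the lining of the heart chambers, thus had the highest Vcam1 mean of all groups, and their lowest library lay above the highest library of any other group.

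Icam1, the ligand of the leukocyte integrins of the Itgb2 family, shared that upper rank. Its level in endocardial-like cells was 84.4, 109 and 136 CPM in Myh6-R404Q, Prkag2-p.R299Q and WT. In vein-like cells it was 111, 98.7 and 101 CPM, and these ranges overlapped. Icam2, a ligand of the same integrins that resting endothelium carries, showed no clear order among the endothelial groups. By mean the Lhx6 and Vegfc cluster (52.0 to 111 CPM) and arterial-like cells (50.6 to 113 CPM) came first. Capillary-like cells (35.4 to 59.8 CPM) came last among the named groups, and the small Lypd6 cluster (17.4 to 40.7 CPM) lay lower by mean. Neighbours in the order overlapped throughout.

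The junction genes split the endothelium another way. Pecam1 was highest in endocardial-like cells, at 1269, 1702 and 1398 CPM in Myh6-R404Q, Prkag2-p.R299Q and WT, and overlapped there with arterial-like cells (1015 to 1303 CPM). Cdh5 encodes VE-cadherin, the cadherin that joins endothelial cells. By mean it was lowest in endocardial-like cells among the named groups (209 CPM), at 213, 245 and 169 CPM. This order did not hold in every library, as vein-like cells of Prkag2-p.R299Q had 237 CPM. Capillary-like cells had 500, 529 and 390 CPM of Cdh5, so in each library the capillary level was above the endocardial one. Lymphatic-like cells were low for both, with 500 to 574 CPM of Pecam1 and 205 to 261 CPM of Cdh5, the Cdh5 range overlapping that of endocardial-like cells.

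**Figure D1:**
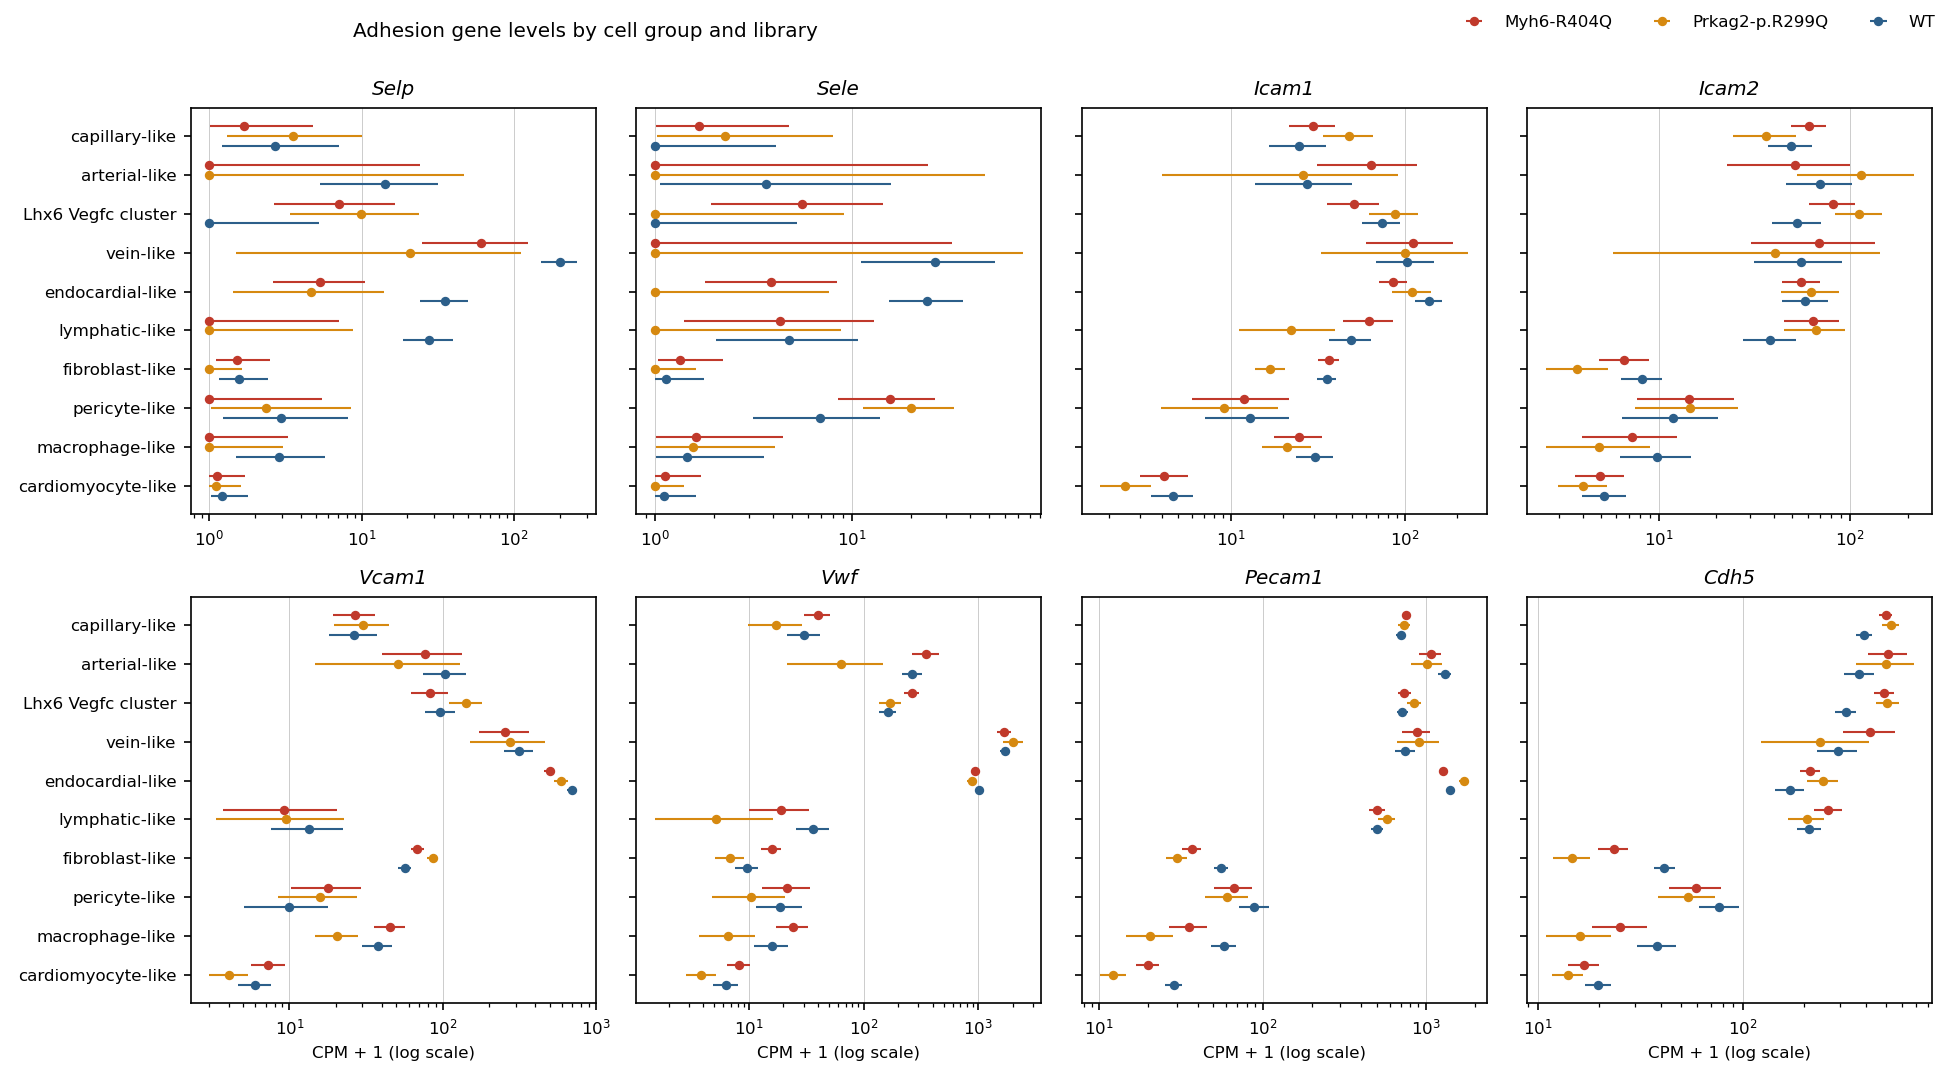
Level of each member gene (x axis, CPM + 1 on a log scale, each panel with its own range) in 10 cell groups (y axis) for the Myh6-R404Q, Prkag2-p.R299Q and WT libraries. Points are CPM of summed UMIs and lines 95% intervals for counting error; Selp stands highest in vein-like cells of WT (199 CPM), while Vwf and Vcam1 peak in vein-like and endocardial-like cells of all 3 libraries.

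Outside the endothelium, B cell-like cells carried Pecam1 at 570, 703 and 643 CPM in Myh6-R404Q, Prkag2-p.R299Q and WT, and T and NK cell-like cells at 190, 287 and 163 CPM. Pecam1 is also known on leukocytes and platelets. Cardiomyocyte-like cells, which should lack it, had 18.8, 11.2 and 27.5 CPM, a level that free RNA in droplets can give. After thinning of every cell to 500 UMIs, 18.9%, 16.2% and 22.4% of B cell-like cells had a Pecam1 UMI, against 1.87%, 0.440% and 2.31% of cardiomyocyte-like cells. Median depths before thinning were 1211, 1501 and 872 UMIs in B cell-like cells and 5091, 6554 and 3625 UMIs in cardiomyocyte-like cells.

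Selp was the measured member that differed most between the mutant and WT libraries. Over all endothelial-like cells it stood at 3.84 CPM (95% interval 2.34 to 5.92, 20 UMIs) in Myh6-R404Q, at 3.15 CPM (1.44 to 5.97, 9 UMIs) in Prkag2-p.R299Q and at 20.8 CPM (17.4 to 24.8, 127 UMIs) in WT. Both mutant libraries were low and their intervals lay below that of WT. The ratio was 0.184 (0.109 to 0.296) for Myh6-R404Q over WT and 0.151 (0.0675 to 0.296) for Prkag2-p.R299Q over WT. Between the mutants it was 0.820 (0.329 to 1.89) for Prkag2-p.R299Q over Myh6-R404Q, an interval that holds 1. In bulk sums of this kind, fewer cells with the transcript and less transcript per cell cannot be told apart, and counts of positive cells are given below for that reason.

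A gene was taken as measured with at least 30 UMIs over both libraries and at least 10 CPM in either, and as called with at least a 1.5-fold ratio. Wherever Selp was measured against WT, it met the limit of 30 through its high WT UMIs, and neither mutant library reached that limit. Groups where Selp was low in WT did not enter. The Selp calls below therefore cover only groups where WT was high and are one-sided for that reason. Of the 8 members 7 were measured in endothelial-like cells for Myh6-R404Q over WT: 1 (Selp) was called lower and 0 higher. Of all genes measured there, 4.59% were called lower and 3.53% higher. The same count held for Prkag2-p.R299Q over WT, with 1 of 7 lower (Selp) and 0 higher, where 4.47% of all genes were called lower and 3.43% higher. Between the mutants, as Prkag2-p.R299Q over Myh6-R404Q, 6 members were measured and 0 were called, where 2.77% of all genes were called lower and 2.59% higher. A single call among 7 genes is not far from those shares, so it is the size of the Selp ratio and not the count that stands out.

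Selp transcripts sat in few cells. In Myh6-R404Q 16 of 3190 endothelial-like cells had a Selp UMI and 3 had at least 2, and in Prkag2-p.R299Q 7 of 1529 cells had one and 1 had at least 2. In WT, 58 of 4753 cells held the 127 UMIs, and 19 cells with at least 2 UMIs held 88 of them, with up to 14 in 1 cell. Endothelial-like cells had median depths of 1441 UMIs for Myh6-R404Q, 1671 UMIs for Prkag2-p.R299Q and 1118 UMIs for WT. With every cell thinned to 500 UMIs, 0.188% of Myh6-R404Q, 0% of Prkag2-p.R299Q (interval up to 0.241%) and 0.715% of WT endothelial-like cells had a Selp UMI. Because the UMIs of 1 cell are not independent, the intervals above are narrower than the true error. Leaving out the cell with the most Selp UMIs in each library gave log2 ratios of -2.20 for Myh6-R404Q over WT and -2.66 for Prkag2-p.R299Q over WT, against -2.17 and -2.40 with it. That cell held 3, 3 and 14 Selp UMIs in Myh6-R404Q, Prkag2-p.R299Q and WT, a larger part of each mutant count than of the WT count. The step therefore cannot show how far the WT level rests on its top cells. In cardiomyocyte-like cells, as a background, Selp was found in 1 of 1336, 1 of 1136 and 2 of 2124 cells.

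**Figure D2:**
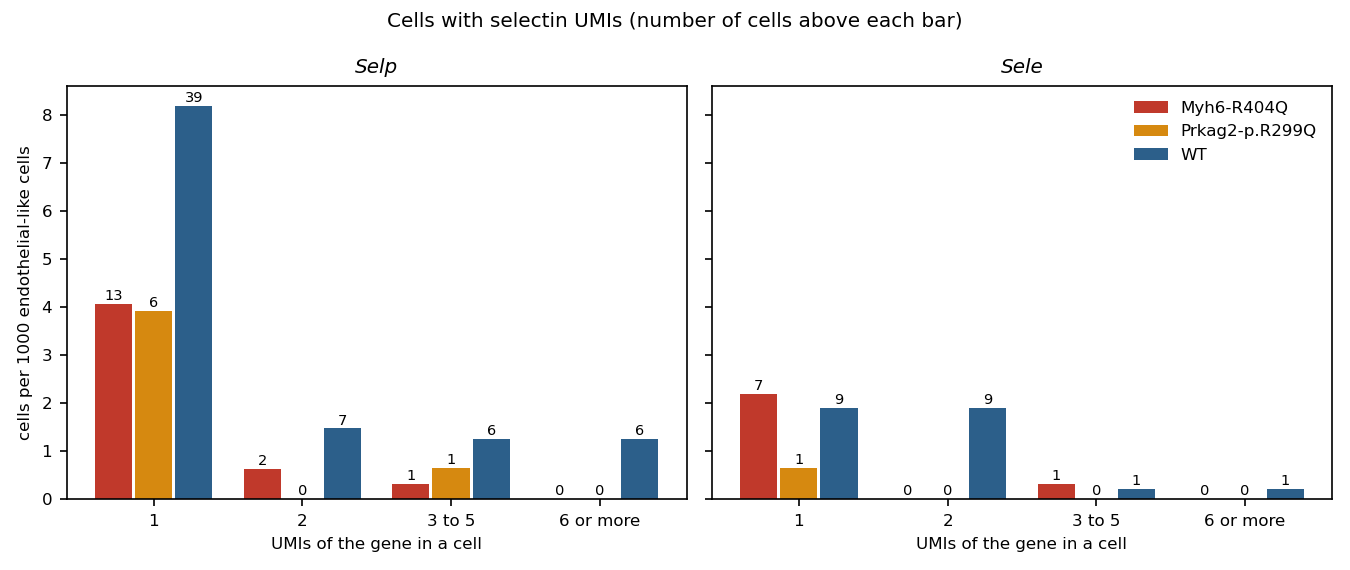
Number of cells per 1000 endothelial-like cells (y axis) with 1, 2, 3 to 5, or 6 or more UMIs (x axis) of Selp (left) and Sele (right), with the count of cells above each bar, for the Myh6-R404Q, Prkag2-p.R299Q and WT libraries. The 6 cells with 6 or more Selp UMIs and the 1 such cell for Sele were all in WT.

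Within the vein-like group, where Selp was highest, 5 of 75 cells of Myh6-R404Q, 1 of 26 cells of Prkag2-p.R299Q and 21 of 206 cells of WT had a Selp UMI. The levels were 59.6 CPM (24.0 to 123, 7 UMIs) in Myh6-R404Q, 19.7 CPM (0.50 to 110, 1 UMI) in Prkag2-p.R299Q and 199 CPM (150 to 260, 55 UMIs) in WT. The ratio over WT was 0.299 (0.115 to 0.658) for Myh6-R404Q and 0.0990 (0.00246 to 0.575) for Prkag2-p.R299Q. Thus the mutant intervals lay below WT, but they rest on 7 UMIs and 1 UMI. Vein markers themselves differed within the group, with Slco2a1 at 153, 217 and 319 CPM and Lrg1 at 17.0, 19.7 and 61.6 CPM in Myh6-R404Q, Prkag2-p.R299Q and WT, while Nr2f2 stood at 247, 355 and 275 CPM. The part of cell makeup within this group in the Selp ratio was not tested. Vein-like cells were themselves a smaller share of the endothelial-like cells in the mutants, at 2.35% and 1.70%, against 4.33% in WT. Without the endocardial-like and lymphatic-like cells the log2 ratio for Myh6-R404Q over WT was -1.68, and with endothelial cells chosen by marker UMIs in place of clusters that for Prkag2-p.R299Q over WT was -1.68. Weighting every endothelial cluster as in WT left Selp log2 ratios of -1.94 for Myh6-R404Q over WT and -2.34 for Prkag2-p.R299Q over WT.

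In vein-like cells, 6 members were measured for each mutant over WT, and Selp was the 1 called lower, with 0 higher. Of all genes measured there, 13.6% were called lower and 11.4% higher for Myh6-R404Q over WT, and 21.1% and 14.4% for Prkag2-p.R299Q over WT. Vwf, stored in the same granules, gave a ratio over WT of 0.980 for Myh6-R404Q and 1.18 for Prkag2-p.R299Q there. Set against Myh6-R404Q, the vein-like cells of Prkag2-p.R299Q had 4 members measured, of which 1 (Cdh5, ratio 0.568, 0.275 to 1.08) was called lower and 0 higher, where 17.1% and 13.4% of all genes were.

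Endocardial-like cells repeated the Selp difference in other cells. Selp stood at 4.37 CPM (6 UMIs in 6 cells) in Myh6-R404Q, 3.63 CPM (2 UMIs in 2 cells) in Prkag2-p.R299Q and 34.3 CPM (31 UMIs in 12 cells) in WT. The ratio over WT was 0.127 (0.0434 to 0.310) for Myh6-R404Q and 0.106 (0.0123 to 0.416) for Prkag2-p.R299Q. These came from 665 cells of Myh6-R404Q with a median of 1894 UMIs, 220 of Prkag2-p.R299Q with 2338 UMIs and 530 of WT with 1511 UMIs. At least 2 Selp UMIs were found in 0 endocardial-like cells of either mutant library and in 6 of WT.

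Lymphatic-like cells gave a further such contrast. No Selp UMI was seen in 326 cells of Myh6-R404Q or in 238 cells of Prkag2-p.R299Q, whereas 28 UMIs in 14 of 742 cells gave 26.8 CPM (17.8 to 38.7) in WT. With 3 counts per library as the floor, Selp was at least 5.40-fold lower in Myh6-R404Q and at least 4.23-fold lower in Prkag2-p.R299Q than in WT. Of the 14 WT cells, 11 had at least 3 UMIs over the lymphatic markers, 12 at least 3 over the general endothelial markers, and 0 had at least 3 over the macrophage markers. At least 3 UMIs over the cardiomyocyte markers were found in all 14, and over the fibroblast markers in 2. Pecam1 was found in 4 of the 14 and Cdh5 in 2, against 46.5% and 24.3% of all WT lymphatic-like cells. None of the 14 held a UMI of Vcam1 or Vwf, which are low in this group as a whole. The remaining endothelial groups had 0 to 5 Selp UMIs per library. In the Lhx6 and Vegfc cluster the order was the other way, with 4 UMIs in each mutant library and 0 in WT, too few to compare.

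Sele was sparse. Endothelial-like cells had 10 Sele UMIs (1.92 CPM, 0.920 to 3.53) in Myh6-R404Q, 1 UMI (0.350 CPM, 0.00885 to 1.95) in Prkag2-p.R299Q and 39 UMIs (6.40 CPM, 4.55 to 8.75) in WT, and it did not reach the measured limit. As with Selp, the mutant libraries were low and the WT library was high. In endocardial-like cells there were 4 Sele UMIs in 2 cells of Myh6-R404Q, 0 in 220 cells of Prkag2-p.R299Q and 21 in 7 cells of WT. Against WT the Myh6-R404Q ratio was 0.125 (0.0313 to 0.371), and Prkag2-p.R299Q was at least 4.27-fold lower with a floor of 3 counts. In vein-like cells 0, 0 and 7 Sele UMIs were found in the same order of libraries.

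Cells with both selectins were seen in WT alone. Among all endothelial-like cells, Sele was also found in 0 of the 16 Selp-positive cells of Myh6-R404Q, 0 of the 7 of Prkag2-p.R299Q and 8 of the 58 of WT. Of the 19 WT cells with at least 2 Selp UMIs, 6 had Sele, whereas 20 of all 4753 WT endothelial-like cells had it. In the endocardial-like group of WT, 5 of 12 Selp-positive cells held Sele and 9 of 12 held Vcam1. Vcam1 was present in 40.6% of all WT endocardial-like cells, so a Vcam1 UMI is common there with or without Selp. These are counts of few cells and no test was made.

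Sele also appeared outside the endothelium. Pericyte-like cells, the mural cells of small vessels, had 12 Sele UMIs in 12 of 434 cells of Myh6-R404Q, 14 UMIs in 5 of 324 cells of Prkag2-p.R299Q and 6 UMIs in 6 of 700 cells of WT. The levels were 14.6, 19.0 and 5.92 CPM, so here WT was the lowest, but in Prkag2-p.R299Q 1 cell alone held 9 of the UMIs. Against Cdh5, an endothelial gene found there as well, pericyte-like cells held 0.250, 0.359 and 0.0779 Sele UMIs per Cdh5 UMI, against 0.00504, 0.000858 and 0.0207 in endothelial-like cells. In endocardial-like cells alone the values were 0.0137, 0 and 0.137, so in WT that group was above pericyte-like cells. Mixed myeloid-like cells held Selp in every library, with 3, 7 and 6 UMIs. Of 9 platelet genes, which mark another source of Selp, Pf4 had 4, 9 and 3 UMIs in that group and Ppbp, Gp9 and Itga2b were at 0. A platelet gene UMI was found in 0 of 2 Selp-positive mixed myeloid-like cells of Myh6-R404Q, 2 of 3 of Prkag2-p.R299Q, each with at least 3 such UMIs, and 2 of 5 of WT. In Prkag2-p.R299Q and WT every platelet gene UMI of the group was of Pf4. At least 3 UMIs over the macrophage markers were found in 2 of 2, 3 of 3 and 5 of 5 of these Selp-positive cells.

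Other gene lists differed between the same libraries. The 9 heat shock genes summed to 633 CPM in Myh6-R404Q, 635 CPM in Prkag2-p.R299Q and 942 CPM in WT endothelial-like cells, and 5 of 9 were called lower and 0 higher in each mutant over WT (median log2 ratio -0.63 in both, against 0.03 and 0.02 over all genes). Hsph1, a co-chaperone, stood at 37.4 CPM in Myh6-R404Q and 94.5 CPM in WT. The 13 immediate early genes, which tissue dissociation is known to induce, summed to 454, 418 and 516 CPM, with 0 of 10 measured called in Myh6-R404Q and 2 of 10 called lower in Prkag2-p.R299Q over WT. The 11 muscle genes that mark free RNA summed to 20550, 17380 and 19760 CPM. In vein-like cells the heat shock sums were 477, 533 and 772 CPM and the immediate early sums 366, 316 and 533 CPM. In endocardial-like cells, where Selp was also lower in the mutants, the immediate early sums were 301, 232 and 290 CPM and the heat shock sums 441, 463 and 690 CPM. The heat shock difference was present in fibroblast-like cells as well, at 442, 470 and 737 CPM. The part of these genes, of depth (lowest in WT) and of the muscle RNA-rich share in the selectin result was not tested, and a difference between the single libraries and one between the genotypes cannot be told apart. Of the platelet genes in endothelial-like cells, summing to 27.8, 37.1 and 35.3 CPM, 4, 4 and 5 of 9 were at 0.

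**Figure D3:**
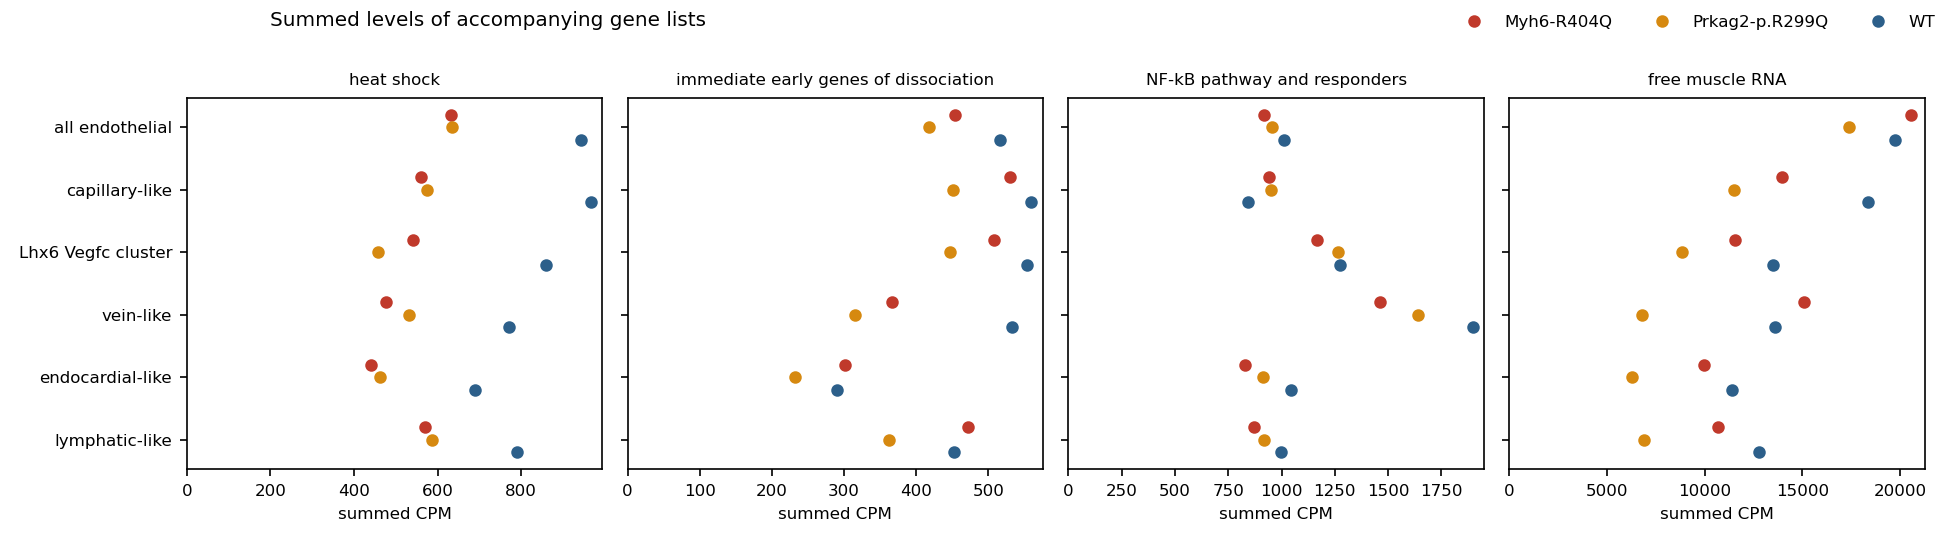
Summed CPM (x axis, from 0) of 4 accompanying gene lists in endothelial-like cells and 5 of their groups (y axis) for the Myh6-R404Q, Prkag2-p.R299Q and WT libraries; points are single libraries without error bars. The heat shock sum is highest in WT in every group shown, while free muscle RNA is lowest in Prkag2-p.R299Q.

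Lists of the surrounding pathways are given by their counts, to be read against the shares of all genes in endothelial-like cells, which were 3.53% higher and 4.59% lower for Myh6-R404Q over WT and 3.43% and 4.47% for Prkag2-p.R299Q over WT. Of 20 genes of the NF-kB pathway, the route by which interleukin 1 and tumour necrosis factor induce selectins, 16 were measured in endothelial-like cells. For Myh6-R404Q over WT 3 were called lower and 0 higher (median log2 ratio -0.05), and for Prkag2-p.R299Q over WT 1 was called lower and 0 higher (-0.13). Il1r1, the interleukin 1 receptor and also a marker used to name vein-like cells, stood at 134 CPM in Myh6-R404Q, 174 CPM in Prkag2-p.R299Q and 204 CPM in WT, a Myh6-R404Q over WT ratio of 0.657 (0.598 to 0.721). The Il1r1 ratio of Myh6-R404Q over WT was 0.524 (0.395 to 0.686) in vein-like and 0.462 (0.367 to 0.580) in endocardial-like cells, while Prkag2-p.R299Q over WT gave 0.938 and 0.811 there. In other groups Il1r1 lay closer together, at 88.3 CPM in Myh6-R404Q and 92.7 CPM in WT capillary-like cells, 37.9 and 39.8 CPM in arterial-like cells, 400.1 and 446 CPM in the Lhx6 and Vegfc cluster and 90.6 and 96.5 CPM in the muscle RNA-rich clusters, whereas lymphatic-like cells had 54.6 and 111 CPM. Nfkbia, the inhibitor that NF-kB itself induces, stood at 78.1, 71.7 and 102 CPM. Nfkb1 (212, 223 and 205 CPM) and the kinase Ikbkb (ratios over WT of 1.05 for Myh6-R404Q and 1.02 for Prkag2-p.R299Q) differed little between libraries.

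The other adhesion and passage genes gave 2 higher and 2 lower of 19 measured for Myh6-R404Q over WT, and 1 and 1 for Prkag2-p.R299Q over WT. Podxl, a sialomucin of the vessel lumen, was at 254, 295 and 330 CPM, while Emcn, Cav1 and Msn lay within 0.953 to 1.18 of WT. Of the Weibel-Palade body genes 1 of 10 was higher and 1 lower in Myh6-R404Q over WT, and 1 and 1 of 11 in Prkag2-p.R299Q over WT. Myrip, Stxbp3, Anxa2 and S100a10, which take part in granule transport or release, lay between 0.827 and 1.19 of WT. Of the junction genes 1 of 15 was higher and 0 lower in Myh6-R404Q, and 0 of 14 in either direction in Prkag2-p.R299Q. Ctnna1, Ctnnd1, Ptprb and Afdn stayed between 0.904 and 1.13 of WT. Of the 8 flow-responsive genes 0 were called in either mutant, with Klf2 at 208, 215 and 195 CPM and Erg at 326, 316 and 245 CPM.

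Icam1 and Vcam1 in endocardial-like cells were lower in Myh6-R404Q than in WT. The Icam1 ratio was 0.620 (0.477 to 0.806), past the 1.5-fold line, and the Vcam1 ratio 0.712 (0.638 to 0.794), short of it. In Prkag2-p.R299Q the ratios over WT were 0.80 (0.577 to 1.10) for Icam1 and 0.846 (0.738 to 0.968) for Vcam1. Of 7 members measured in endocardial-like cells, 2 (Selp and Icam1) were called lower and 0 higher for Myh6-R404Q over WT, where 7.71% of all genes were lower and 10% higher. The count for Prkag2-p.R299Q over WT was 1 (Selp) lower and 0 higher of 7, where 11.1% and 7.65% of all genes were. Prkag2-p.R299Q over Myh6-R404Q gave 0 of 6, where 11.9% were lower and 6.16% higher. Over all endothelial-like cells the Vcam1 ratio of Myh6-R404Q over WT was 1.07 (0.970 to 1.17). Endocardial-like cells were 20.9% of all endothelial-like cells of Myh6-R404Q, 14.4% of those of Prkag2-p.R299Q and 11.2% of those of WT. Weighted as in WT, the log2 ratio of Vcam1 for Myh6-R404Q over WT was -0.33, against 0.09 unweighted.

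Vwf was called in no comparison with WT in vein-like and endocardial-like cells, where it is highest. Over all endothelial-like cells it stood at 350 CPM in Myh6-R404Q, 240 CPM in Prkag2-p.R299Q and 288 CPM in WT, with ratios over WT of 1.22 (1.14 to 1.30) and 0.833 (0.762 to 0.910). In arterial-like cells it was 348 CPM (55 UMIs), 62.7 CPM (5 UMIs) and 263 CPM (99 UMIs), so that Prkag2-p.R299Q stood apart from both other libraries. The Prkag2-p.R299Q over WT ratio there was 0.238 (0.0758 to 0.575). In the Lhx6 and Vegfc cluster Vwf was at 263, 170 and 162 CPM, and the Myh6-R404Q over WT ratio was 1.63 (1.30 to 2.05). In fibroblast-like cells, which should lack Vwf, it was at 14.8, 5.81 and 8.56 CPM, again highest in Myh6-R404Q and lowest in Prkag2-p.R299Q, and the part of free RNA in these ratios was not tested.

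Cdh5 was higher in both mutants than in WT in most endothelial groups. Over all endothelial-like cells it stood at 381, 407 and 308 CPM in Myh6-R404Q, Prkag2-p.R299Q and WT, with ratios over WT of 1.23 (1.16 to 1.32) and 1.32 (1.23 to 1.42). In the Lhx6 and Vegfc cluster the ratios were 1.54 (1.31 to 1.82) and 1.60 (1.33 to 1.91), past the 1.5-fold line. Outside the endothelium the direction turned: in fibroblast-like cells Cdh5 was at 22.5, 13.7 and 40.6 CPM and in macrophage-like cells at 24.3, 15.04 and 37.1 CPM, highest in WT. Pecam1 showed the same order in fibroblast-like cells, with 35.9, 28.7 and 54.7 CPM. Thus WT held the most of these endothelial transcripts in cells that should lack them and the least Cdh5 in endothelial cells.

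Icam2 was higher along with Cdh5 in the Lhx6 and Vegfc cluster, at 80.6 CPM in Myh6-R404Q and 111 CPM in Prkag2-p.R299Q, against 52.0 CPM in WT. The ratios were 1.55 (1.02 to 2.36) and 2.13 (1.39 to 3.26). Of 6 members measured there, 3 (Icam2, Vwf and Cdh5) were called higher and 0 lower for Myh6-R404Q over WT, where 8.75% of all genes were higher and 7.95% lower. Icam2 and Cdh5 were the 2 called higher for Prkag2-p.R299Q over WT, with 0 lower of 6, where 8.5% and 9.83% of all genes were. Icam1 and Vcam1 were the 2 higher and Vwf the 1 lower of 6 for Prkag2-p.R299Q over Myh6-R404Q, where 6.9% and 8.48% of all genes were.

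In capillary-like cells 0 of 6 members were called for Myh6-R404Q over WT, where 8.02% of all genes were higher and 7.49% lower. Icam1 was the 1 higher and Vwf the 1 lower of 6 for Prkag2-p.R299Q over WT, where 7.1% and 9.41% of all genes were. Icam1 in capillary-like cells was at 28.5 CPM in Myh6-R404Q, 46.7 CPM in Prkag2-p.R299Q and 23.6 CPM in WT, from 42, 37 and 28 UMIs. Between the mutants, Icam1 was the 1 higher and Icam2 and Vwf the 2 lower of 6 for Prkag2-p.R299Q over Myh6-R404Q, where 5.72% and 7.85% of all genes were.

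In lymphatic-like cells the called members were Icam2 higher and Vwf lower (5 measured) for Myh6-R404Q over WT, where 9.24% of all genes were higher and 8.76% lower. The calls for Prkag2-p.R299Q over WT were Icam2 higher and Icam1 and Vwf lower (5 measured), where 7.23% and 11.7% of all genes were. Icam1 there was at 61.2, 21.1 and 47.8 CPM in Myh6-R404Q, Prkag2-p.R299Q and WT, from 37, 10 and 50 UMIs. Icam1 was also the 1 lower of 4 for Prkag2-p.R299Q over Myh6-R404Q, with 0 higher, where 9.88% and 6.09% of all genes were. Selp, with 28 UMIs over both libraries, fell just short of the 30 UMIs needed and is not in these counts.

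**Figure D4:**
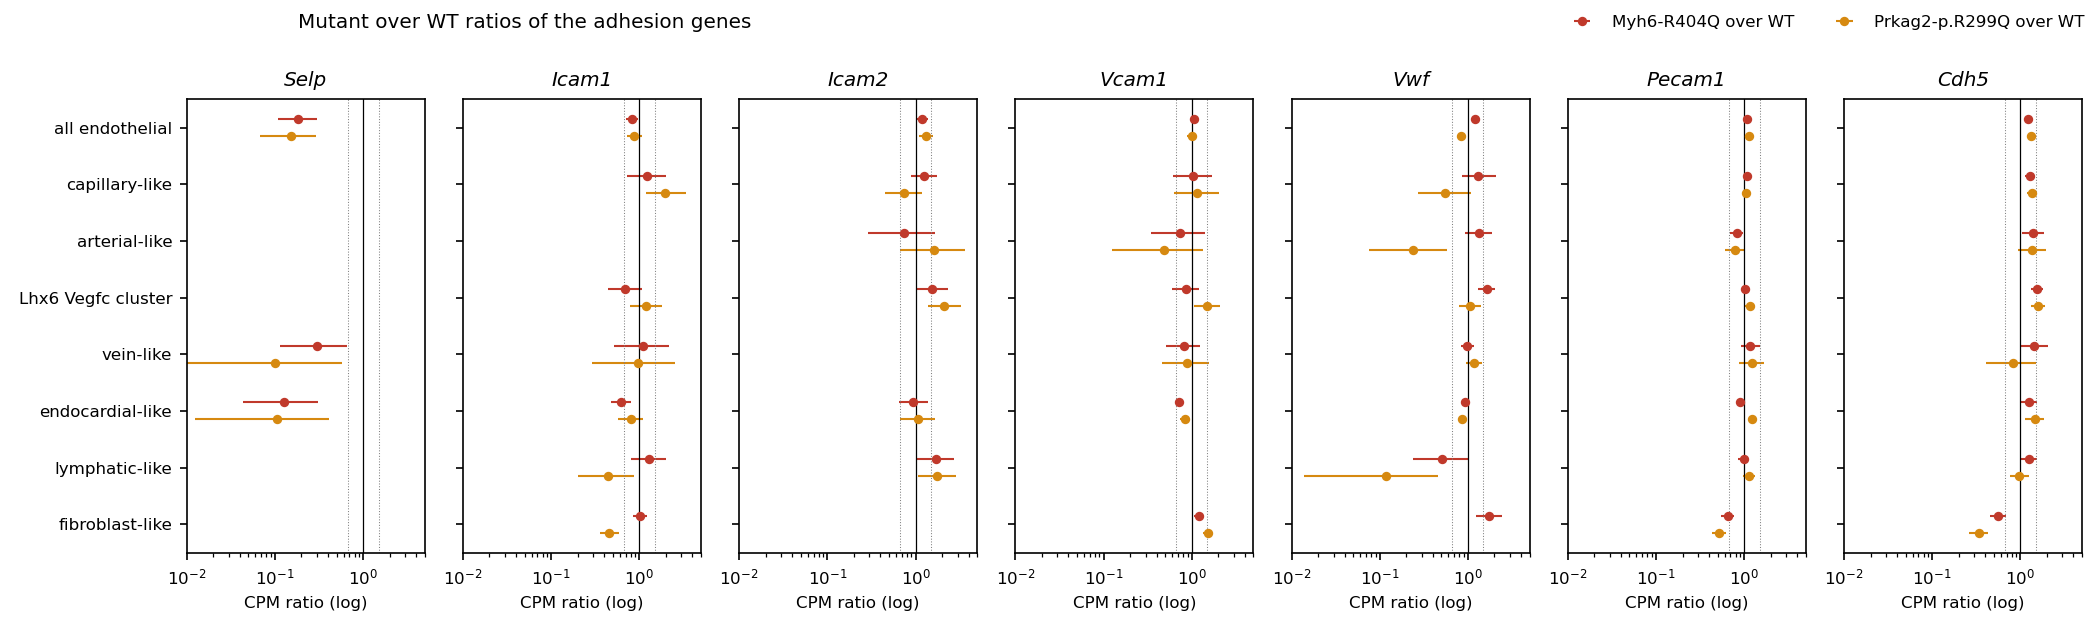
Ratio of CPM (x axis, log scale, cut at 0.01) for Myh6-R404Q over WT and Prkag2-p.R299Q over WT of 7 members in endothelial-like cells, 6 of their groups and fibroblast-like cells (y axis), where measured; lines are 95% intervals for counting error, the solid line marks 1 and dotted lines 1.5-fold. Selp was measured in endothelial-like, vein-like and endocardial-like cells, and lies left of the 1.5-fold line there. It entered these groups through its high WT UMIs, so groups where it was low in WT are not shown. Cdh5 is right of 1 in most endothelial groups, and both Pecam1 and Cdh5 are left of it in fibroblast-like cells.

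Fibroblast-like cells, the matrix-forming cells of the heart, had more UMIs of Vcam1, Icam1 and Icam2 per Cdh5 UMI than the endothelial-like cells as a whole. There were 3.00, 6.22 and 1.37 Vcam1 UMIs per Cdh5 UMI in fibroblast-like cells of Myh6-R404Q, Prkag2-p.R299Q and WT, against 0.431, 0.379 and 0.499 in endothelial-like cells. Endocardial-like cells alone had 2.35, 2.42 and 4.14, which in WT is above the fibroblast value. The fibroblast values rest on 396, 498 and 397 Vcam1 UMIs over 132, 80 and 289 Cdh5 UMIs. Differences between libraries in such values thus also carry the Cdh5 difference. For Icam1 the values per Cdh5 UMI were 1.58, 1.16 and 0.855 in fibroblast-like cells, against 0.137, 0.135 and 0.202 in endothelial-like cells and 0.397, 0.444 and 0.804 in endocardial-like cells. The excess over endothelial-like cells was not particular to fibroblast-like cells. Mesothelial-like cells had 1.76, 1.79 and 1.12 Icam1 UMIs per Cdh5 UMI, above fibroblast-like cells in each library. Macrophage-like cells had 0.974, 1.33 and 0.8 for Icam1 and 1.82, 1.30 and 0.988 for Vcam1, and also exceeded endothelial-like cells for Icam2. Icam2, at only 2.73 to 7.16 CPM in fibroblast-like cells, gave 0.25, 0.2 and 0.1765 there. Its values were 0.1511, 0.1571 and 0.158 in endothelial-like cells and 0.2568, 0.2519 and 0.3399 in endocardial-like cells. Vcam1 in fibroblast-like cells was at 67.4, 85.1 and 55.7 CPM, and the ratio over WT was 1.21 (1.05 to 1.39) for Myh6-R404Q and 1.53 (1.34 to 1.75) for Prkag2-p.R299Q. Icam1 went the other way in 1 mutant, with 35.6, 15.9 and 34.7 CPM and a Prkag2-p.R299Q over WT ratio of 0.458 (0.357 to 0.584).

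For Myh6-R404Q over WT, 5 members were measured in fibroblast-like cells, with 1 (Vwf) called higher and 2 (Pecam1 and Cdh5) lower, where 4.47% of all genes were higher and 4.91% lower. Of 4 measured for Prkag2-p.R299Q over WT, 1 (Vcam1) was higher and 3 (Icam1, Pecam1 and Cdh5) lower, where 3.23% and 6.17% of all genes were. Between the mutants 0 of 5 were higher and 3 (Icam1, Vwf and Cdh5) lower for Prkag2-p.R299Q over Myh6-R404Q, where 2.41% and 4.06% of all genes were. The calls for Pecam1, Cdh5 and Vwf concern transcripts that these cells are not known to make.

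On the leukocyte side, 13 of 21 genes for selectin ligands, integrins and their glycan enzymes were measured in macrophage-like cells. For Myh6-R404Q over WT 0 were called higher and 1 lower, where 9.44% and 9.86% of all genes were. For Prkag2-p.R299Q over WT 2 were higher and 0 lower, where 6.49% and 11.6% of all genes were. Cd44, a ligand of E-selectin and of hyaluronan, stood at 234 CPM in Myh6-R404Q, 346 CPM in Prkag2-p.R299Q and 340 CPM in WT. Itga4, a chain of the Vcam1 receptor, stood at 239, 258 and 251 CPM and its partner Itgb1 at 287, 284 and 272 CPM. Itga9, another integrin chain that can bind Vcam1, stood at 379, 518 and 490 CPM.

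Likeness of pattern was measured as Pearson's r of log2(CPM + 1) over 30 sums (10 cell groups in 3 libraries, which share cells' depth and free RNA), as a description. Pecam1 was most like Emcn (0.99), Cdh5 most like Ptprb (0.99), whose product is a phosphatase that acts on VE-cadherin, and Icam2 most like Tie1 (0.98). Vwf was most like Ifitm10 (0.89), Vcam1 most like Rdx (0.87) and Icam1 most like Ppp4r3b (0.85). For Selp (Gcn1, 0.65), with 202 UMIs in all, no gene came close, and vein-like cells were too few to enter.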

How the data were processed

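Single-cell 3-prime RNA counts were analysed for 3 libraries, 1 per genotype. Per the labels, the authors deposited matrices of raw UMI counts per gene and barcode, and the submitters' processing notes name Cell Ranger 7.0.1 and mm10. The suffix of its own barcodes in the pooled Myh6-R404Q matrix was assigned by elimination. Barcodes with at least 500 UMIs, 300 genes and at most 20% mitochondrial UMIs were kept, and Scrublet doublets were removed (scanpy 1.11.5; 16.8% of Myh6-R404Q barcodes, 14.7% of Prkag2-p.R299Q barcodes and 18.0% of WT barcodes). Cells were clustered on 2000 variable genes and 30 components with 20 neighbours (leidenalg 0.10.2, resolution 0.8), with the 8 members left out, and the endothelial-like cells were clustered again. Counts were summed per cell group and library as CPM. Intervals at 95% (scipy 1.17.1) are exact Poisson for levels, exact binomial for shares and exact conditional binomial for ratios. Log2 ratios use a pseudocount of 1 CPM, and the floor for 0 is 3 counts per library. List genes were named as the 4 with the highest mean in each list, or past 2-fold at 50 CPM or more. The members and lists were chosen with earlier results of these data known. Statistics were tested on simulated data. The genes most like Sele in pattern are not reported here.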

Additional observations from a re-analysis of the deposited data

Results flagged for a closer look

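The ratio between genotypes of Cdh5, Pecam1, Icam1, Vcam1 and Icam2 ran past 1.5-fold, with an interval that leaves out 1, in opposite directions in different cell groups. Vwf for Myh6-R404Q over WT was also past 1.5-fold both ways, at 1.63 in the Lhx6 and Vegfc cluster and 1.73 (1.23 to 2.44) in fibroblast-like cells, but its lower ratio in lymphatic-like cells, 0.514 (0.237 to 1.03), has an interval that holds 1. These differences between groups were not tested. Cdh5 for Myh6-R404Q over WT was 1.54 in the Lhx6 and Vegfc cluster, against 0.554 in fibroblast-like, 0.506 in mesothelial-like and 0.656 in macrophage-like cells. Cdh5 for Prkag2-p.R299Q over WT was 1.6 in the Lhx6 and Vegfc cluster, against 0.337 in fibroblast-like, 0.492 in mesothelial-like and 0.406 in macrophage-like cells. Pecam1 for Prkag2-p.R299Q over WT was 1.64 in the Lypd6 cluster, against 0.524 in fibroblast-like, 0.275 in mesothelial-like, 0.406 in cardiomyocyte-like and 0.342 in macrophage-like cells.

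Icam1 for Prkag2-p.R299Q over WT was 1.98 in capillary-like cells, against 0.441 in lymphatic-like cells, 0.0891 in the muscle RNA-rich endothelial clusters and 0.458 in fibroblast-like cells. Icam1 for Prkag2-p.R299Q over Myh6-R404Q was 1.64 in capillary-like cells and 1.72 in the Lhx6 and Vegfc cluster, against 0.345 in lymphatic-like and 0.447 in fibroblast-like cells. Vcam1 for Prkag2-p.R299Q over WT was 1.53 in fibroblast-like cells, against 0.385 in the muscle RNA-rich endothelial clusters and 0.532 in macrophage-like cells. Vcam1 for Prkag2-p.R299Q over Myh6-R404Q was 1.72 in the Lhx6 and Vegfc cluster, against 0.385 in the muscle RNA-rich endothelial clusters and 0.44 in macrophage-like cells. In the muscle RNA-rich clusters of Prkag2-p.R299Q only 0.844% of 237 cells had an Icam1 UMI and 2.53% a Vcam1 UMI. The Icam1 and Vcam1 ratios there thus rest on few cells. Icam2 for Prkag2-p.R299Q over Myh6-R404Q was 0.591 in capillary-like cells and 1.86 in the muscle RNA-rich endothelial clusters.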

How the results depend on the processing

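No ratio called in the main setting changed direction under the alternatives run for it. Ratios not called there were checked only against their interval. The alternatives covered endothelial-like cells and the named endothelial groups, and not the Lhx6 and Vegfc cluster. Of the ratios in endothelial-like cells 240 stayed within their interval and 40 moved, and within the named endothelial groups 383 stayed and 6 moved. The count of members called, 1, 1 and 0 for Myh6-R404Q over WT, Prkag2-p.R299Q over WT and Prkag2-p.R299Q over Myh6-R404Q, was 2, 2 and 1 with no filter on low values, which lets Sele in. For Prkag2-p.R299Q over WT it was 2 with cells chosen by marker UMIs (adding Icam1) and 2 in blood vascular groups alone (adding Vwf). For Prkag2-p.R299Q over Myh6-R404Q it was 1 with cells chosen by marker UMIs and 1 with doublets kept (Vwf in both), and 1 with the Myh6-R404Q matrix as deposited (Selp). That matrix repeats the WT cells, and with it the Selp log2 ratio of Myh6-R404Q over WT was -0.86. The Selp log2 ratio of Prkag2-p.R299Q over Myh6-R404Q, -0.22 and not called, was 0.41 with cells chosen by marker UMIs. All 8 members kept their highest named endothelial group at higher resolution, 6 with the members among the clustering genes (Sele and Icam1 moved to vein-like cells), 6 with doublets kept and 5 at lower resolution. With doublets kept and at lower resolution no cluster was vein-like, so Selp and Vwf could not keep that group. At lower resolution no cluster was capillary-like either, and Cdh5 moved to arterial-like cells. No paired analysis was possible because each genotype had 1 library. For the same reason no library could be left out. Selp and Sele rest on few UMIs, which limits their precision.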
